A study of Mus musculus with 6 samples.

Results

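The genes described here encode the machinery that moves membrane vesicles inside cells. They were chosen by symbol alone and are the Rab, Arf, Vps, Snx, Stx, Vamp, Sec, COPI, Trappc, Exoc, Chmp and AP (AP-1, AP-2 and AP-3) genes of the deposited expression table. They number 170 of its 8191 genes. The mouse annotation holds 258 protein-coding genes with such symbols, so 65.9% of them were listed, against 37.4% of all 21900 protein-coding genes. Rab genes made up 39 of the 170, Vps and Snx genes 25 each, AP genes 19, Sec genes 14, Stx and Trappc genes 9 each, Chmp genes 8, COPI genes 7, Exoc genes 6, Vamp genes 5 and Arf genes 4. A few were taken by name only. Vps72 encodes a chromatin protein, Sec14l2 a lipid-binding protein, and Exoc3l4 a relative of the exocyst subunits. The Rab genes include effectors and regulators of Rab GTPases, such as Rab11fip4 and Rab3il1.

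Myeloid-derived suppressor cells (MDSCs) are immature myeloid cells that restrain T cells. In this study they were taken from the spleens of aged mice on a BALB/c background and were neither cultured nor treated. The labels name cell sorting, whereas the study's methods describe an MDSC isolation kit with purity read by flow cytometry. There were 3 genotypes, wild type (WT), Tnfr1-/- (lacking TNF receptor 1) and Tnfr2-/- (lacking TNF receptor 2), with 2 samples each, and every sample pooled the cells of several mice. RNA was measured by mRNA sequencing and given in FPKM, a unit that corrects fragments for transcript length and library size. The comparisons address how the loss of either TNF receptor was accompanied by a change in the RNA of these cells.

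Several features of the whole table bear on each value below. The depth behind a value is unknown, since the values are FPKM and not counts. Every listed gene had passed an ANOVA over the 3 genotypes at p below 0.05, so the table holds only genes already picked for a difference. The listed genes summed to 344714 and 346870 FPKM in WT, to 133604 to 134343 FPKM in Tnfr1-/- and to 148956 to 155248 FPKM in Tnfr2-/-. The median gene was accordingly lower than in WT by a log2 change of -0.83 in Tnfr1-/- and -0.74 in Tnfr2-/-. WT values carried up to 10 digits and knockout values up to 6, and a difference in how they were made cannot be told apart from genotype. Tnfrsf1b, the gene of TNF receptor 2, was at 112 and 115 FPKM in WT, at 47.8 and 69.6 FPKM in Tnfr1-/- and at 11.3 and 14.3 FPKM in Tnfr2-/-. Tnfrsf1a, the gene of TNF receptor 1, was not among the listed genes. The Tnfr1-/- label was therefore not checked by its own gene.

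Markers of several cell types moved with genotype too. The study counted granulocytic as well as monocytic cells among its MDSCs, so the neutrophil genes need not mark other cells. All 12 genes of a macrophage list were called lower in both knockouts as deposited, and their summed FPKM was 3744 to 3924 in the WT samples, 305 to 349 in Tnfr1-/- and 383 to 426 in Tnfr2-/-. Of 13 neutrophil genes 3 were listed, and their summed FPKM was 13.7 to 15.4 in the WT samples, 2732 to 3070 in Tnfr1-/- and 1522 to 2450 in Tnfr2-/-. The 4 listed genes of 6 B cell genes reached a summed FPKM of 46.5 to 46.9 in the WT samples, 318 to 382 in Tnfr1-/- and 167 to 299 in Tnfr2-/-. Of 7 MDSC and myeloid genes 4 were listed, and 2 were called higher and 2 lower in each knockout as deposited. Ly6c1, which belongs to the Gr-1 antigen family by which MDSCs are recognised, was at 0.16 and 0.064 FPKM in the WT samples and at 95.8 to 178 FPKM in the others. Ptprc was at 98.2 and 105 FPKM in WT and 229 to 271 FPKM in the others. Spi1 went the other way, from 299 and 284 FPKM in WT to 130 to 163 FPKM. Csf1r likewise went from 225 and 238 FPKM in WT to 71.3 to 171 FPKM. Itgam, Ly6g and Ly6c2 were not among the listed genes. The part of these cell markers in the results was not tested, and in bulk RNA fewer cells of a type and less RNA per cell cannot be told apart.

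Vesicle traffic follows a common scheme. Coats (COPII leaving the endoplasmic reticulum, COPI within the Golgi, clathrin with its AP adaptors at the Golgi, endosomes and plasma membrane) gather cargo and bend the membrane, and Arf GTPases recruit several of them. Rab GTPases then mark each compartment and recruit tethers such as TRAPP, the exocyst, HOPS and GARP, after which SNARE proteins (syntaxins and VAMPs) fuse the membranes. Retromer and sorting nexins return receptors from endosomes, and ESCRT complexes, built from Vps and Chmp proteins, sort receptors into multivesicular bodies. In myeloid cells this machinery serves phagocytosis, granule release and the surface display of receptors.

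Most of the 170 genes were lower in the knockouts as deposited, as was the table as a whole. A gene was called different at a limma adjusted p under 0.05 and a fold change over 1.5. In Tnfr1-/- against WT 16 of them were called higher, where 14.1% of all genes were, and 124 were called lower, where 60.7% of all genes were. In Tnfr2-/- against WT 14 were called higher (13.6% of all genes) and 108 lower (57.1% of all genes). Their median log2 change was -0.97 in Tnfr1-/- and -0.86 in Tnfr2-/-, against the -0.83 and -0.74 of all genes given above. Both comparisons use the same WT samples.

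The scale decided much of this. After median-ratio scaling, which sets the typical gene of each sample to one level, 34 were called higher (23.3% of all genes) and 35 lower (22.1%) in Tnfr1-/-, and 31 higher (21.8%) and 31 lower (21.0%) in Tnfr2-/-. The median log2 change of the 170 genes was then 0.036 and 0.026, beside -0.033 and -0.032 for all genes, which this scaling centres near 0. Quantile normalization gave 26 higher (21.2% of all genes) and 36 lower (25.1%) in Tnfr1-/-, and 26 higher (20.6%) and 33 lower (22.6%) in Tnfr2-/-. Called under all 3 scalings were 16 higher (14.1% of all genes) and 33 lower (21.3%) in Tnfr1-/-, and 14 higher (13.6%) and 29 lower (19.7%) in Tnfr2-/-. The genes named below as risen or fallen kept their call under all 3 unless it is said otherwise. Counts for families and complexes below are to be read beside these shares of all genes.

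**Figure D1:**
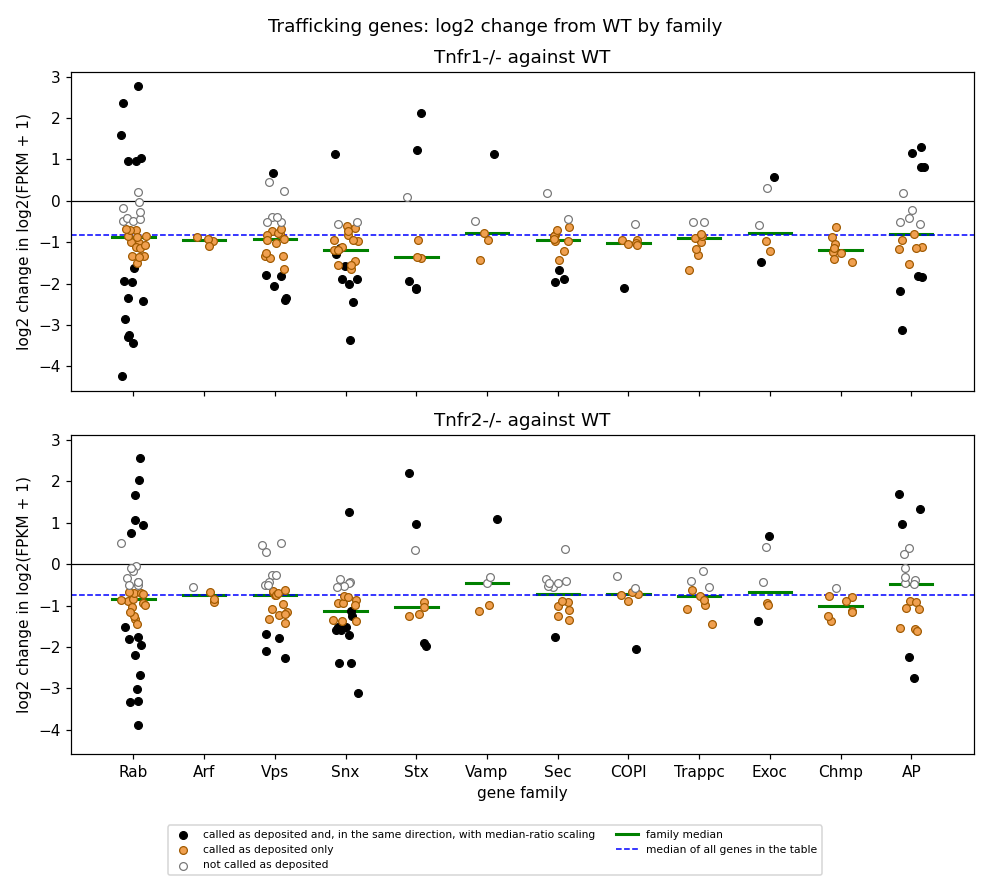
Log2 change in log2(FPKM + 1) from WT (vertical axis) for each of the 170 genes by family (horizontal axis), Tnfr1-/- above and Tnfr2-/- below, with the family median as a green bar and the median of all 8191 genes as a dashed line at -0.83 and -0.74. Black points, called also after median-ratio scaling, lie at both ends of the Rab, Snx, Stx and AP columns, while the Arf, Trappc and Chmp columns hold no black point.

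Levels, given here as deposited, spanned a wide range. Median-ratio scaling would divide the WT samples by 1.66 and 1.67 and the knockout samples by 0.74 to 0.88. The levels below thus compare across genotypes only on the deposited scale. The median level of the 170 genes, in FPKM, was 19.9 in WT, 11.1 in Tnfr1-/- and 12.6 in Tnfr2-/-. In WT 14 of them reached 100 FPKM, led by Rab7, the GTPase of late endosomes and lysosomes, at 253 FPKM. In each knockout only Arf1, which recruits COPI and clathrin adaptors to the Golgi, did so, at 124 FPKM in Tnfr1-/- and 145 FPKM in Tnfr2-/-. The 170 genes held 1.82% to 1.84% of the summed FPKM of the WT samples and 2.21% to 2.30% of that of the knockout samples.

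Among the genes that rose, the largest change was that of Rab27a (chr9:73044854-73097629, build GRCm38), a GTPase that docks secretory granules at the plasma membrane. Rab27a was at 5.14 and 4.83 FPKM in WT, at 39.1 and 40.3 FPKM in Tnfr1-/- and at 45.6 and 26.2 FPKM in Tnfr2-/-. Both WT samples lay far below all 4 knockout samples, and the Tnfr2-/- samples lay apart from each other. The log2 change was 2.77 ± 0.26 (SE, adjusted p = 0.000376) in Tnfr1-/- and 2.57 ± 0.26 (adjusted p = 0.000541) in Tnfr2-/-. Stx11 (chr10:12938209-12964298), a syntaxin needed for cytotoxic granule release, was at 4.13 and 4.69 FPKM in WT, 23.2 and 22.2 FPKM in Tnfr1-/- and 27.5 and 20.7 FPKM in Tnfr2-/-. Its log2 change was 2.13 ± 0.15 (adjusted p = 0.000164) and 2.20 ± 0.15 (adjusted p = 0.000172). No knockout sample overlapped with WT. These are also genes of granule-bearing cells. The neutrophil and the B cell markers above both rose in the same 4 samples, and their part in these rises was not tested.

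Rab11fip4, an effector of the recycling endosome GTPase Rab11, was at 0.84 and 0.76 FPKM in WT, 6.91 and 9.72 FPKM in Tnfr1-/- and 7.49 and 5.44 FPKM in Tnfr2-/-. Its mean was 10.4 times that of WT in Tnfr1-/- and 8.09 times in Tnfr2-/-. Rab2a, which acts between the endoplasmic reticulum and the Golgi, was at 9.73 and 10.04 FPKM in WT, 32.7 and 31.0 FPKM in Tnfr1-/- and 38.9 and 29.3 FPKM in Tnfr2-/-. Both genes thus lay above WT in each knockout sample. Rab2a rose by a log2 change of 1.59 ± 0.14 (adjusted p = 0.000332) and 1.68 ± 0.14 (adjusted p = 0.000325).

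The remaining risers, other than AP-1 genes, were smaller in size. Stx17, the syntaxin of autophagosomes, went from 4.59 and 4.75 FPKM in WT to 11.2 and 13.6 FPKM in Tnfr1-/- and 11.5 and 8.96 FPKM in Tnfr2-/-. Snx18, a sorting nexin of endocytosis and autophagosome formation, went from 15.5 and 16.1 FPKM to 37.8 and 33.6 FPKM and to 44.9 and 34.7 FPKM. Vamp2, a vesicle SNARE of regulated exocytosis, went from 14.8 and 12.5 FPKM to 30.9 and 31.3 FPKM and to 27.0 and 33.1 FPKM. In none of the 3 did a knockout sample reach down to WT. Rab33b and Rab39 were called higher in both comparisons with log2 changes of 0.94 to 1.06, although 20.8% of the 50-base windows of Rab33b also occur in another gene. Exoc6b, an exocyst subunit, was low throughout (0.79 and 0.86 FPKM in WT, 1.65 to 1.92 FPKM in the knockouts) and rose by a log2 change of 0.59 ± 0.06 (adjusted p = 0.000479) and 0.68 ± 0.06 (adjusted p = 0.000357), the first of which fell below the fold threshold without WT replicate 1 (0.56) or Tnfr1-/- replicate 2 (0.54). Vps13a, a lipid transfer protein, and Ap1m2, an AP-1 subunit of epithelial cells, were called higher in Tnfr1-/- alone as deposited. Whether they differed between the knockouts at the same threshold is given at the end. Quantile normalization called Ap1m2 higher in Tnfr2-/- too. Its median-ratio log2 change there was 0.584, just under the threshold of 0.585.

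The largest fall was that of Rab3il1 (chr19:10001669-10038380), which encodes an exchange factor that activates Rab GTPases. It was at 37.4 and 35.9 FPKM in WT, 0.96 and 1.02 FPKM in Tnfr1-/- and 1.43 and 1.66 FPKM in Tnfr2-/-. The mean in WT was 37.1 times that in Tnfr1-/- and 23.8 times that in Tnfr2-/-, and the log2 change was -4.24 ± 0.09 (adjusted p = 8.37e-06) and -3.89 ± 0.09 (adjusted p = 1.07e-05). Rab12, a GTPase of recycling endosomes and lysosomes, was at 29.8 and 30.9 FPKM in WT, 1.95 and 1.86 FPKM in Tnfr1-/- and 1.90 and 2.36 FPKM in Tnfr2-/-. The log2 change of Rab12 was -3.43 ± 0.11 (adjusted p = 1.74e-05) and -3.33 ± 0.11 (adjusted p = 1.99e-05). In both genes the 2 WT samples stood close together and well above the rest.

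A further set of Rab genes came close to the floor of the table in the knockouts. Rab34, which acts in macropinosome formation and lysosome positioning, was at 13.7 and 12.3 FPKM in WT, 0.61 and 0.35 FPKM in Tnfr1-/- and 0.20 and 0.67 FPKM in Tnfr2-/-. Rab7b, which serves transport from late endosomes to the Golgi, was at 13.6 and 12.8 FPKM in WT, 0.52 and 0.40 FPKM in Tnfr1-/- and 0.57 and 0.97 FPKM in Tnfr2-/-. Rab13, a GTPase of junction and surface transport, was at 7.81 and 7.55 FPKM in WT, 0.11 and 0.28 FPKM in Tnfr1-/- and 0.47 and 0.24 FPKM in Tnfr2-/-. Each of them lay below 1 FPKM in all 4 knockout samples, and their log2 changes ranged from -3.31 (Rab34 in Tnfr2-/-) to -2.68 (Rab13 in Tnfr2-/-). Rab7 itself was at 256 and 250 FPKM in WT, 84.4 and 92.2 FPKM in Tnfr1-/- and 104 and 82.1 FPKM in Tnfr2-/-. Its fall was called as deposited (log2 change -1.51 and -1.44) but not after median-ratio scaling (-0.37 and -0.46). The macrophage markers fell in the same 4 samples as these genes, and their part in the falls was not tested.

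The 39 genes with a Rab symbol include Rab11 effectors and Rab3il1 beside the Rab GTPases. Of all 39, 6 were called higher (14.1% of all genes) and 25 lower (60.7%) in Tnfr1-/-. In Tnfr2-/- 6 were called higher (13.6%) and 24 lower (57.1%). After median-ratio scaling these counts were 11 and 10 in Tnfr1-/- and 9 and 10 in Tnfr2-/-. The family median, -0.86 and -0.85, was close to the -0.83 and -0.74 of all genes. Rab40b was listed at 0 in all 4 knockout samples and at 0.027 FPKM in both WT samples. Of the highly expressed Rab genes, Rab8a, which directs exocytosis, was at 71.1 and 75.5 FPKM in WT, 59.5 and 60.7 FPKM in Tnfr1-/- and 67.6 and 69.1 FPKM in Tnfr2-/- and was called in neither comparison as deposited, whereas median-ratio scaling called it higher in both (log2 change 0.84 and 0.88).

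**Figure D2:**
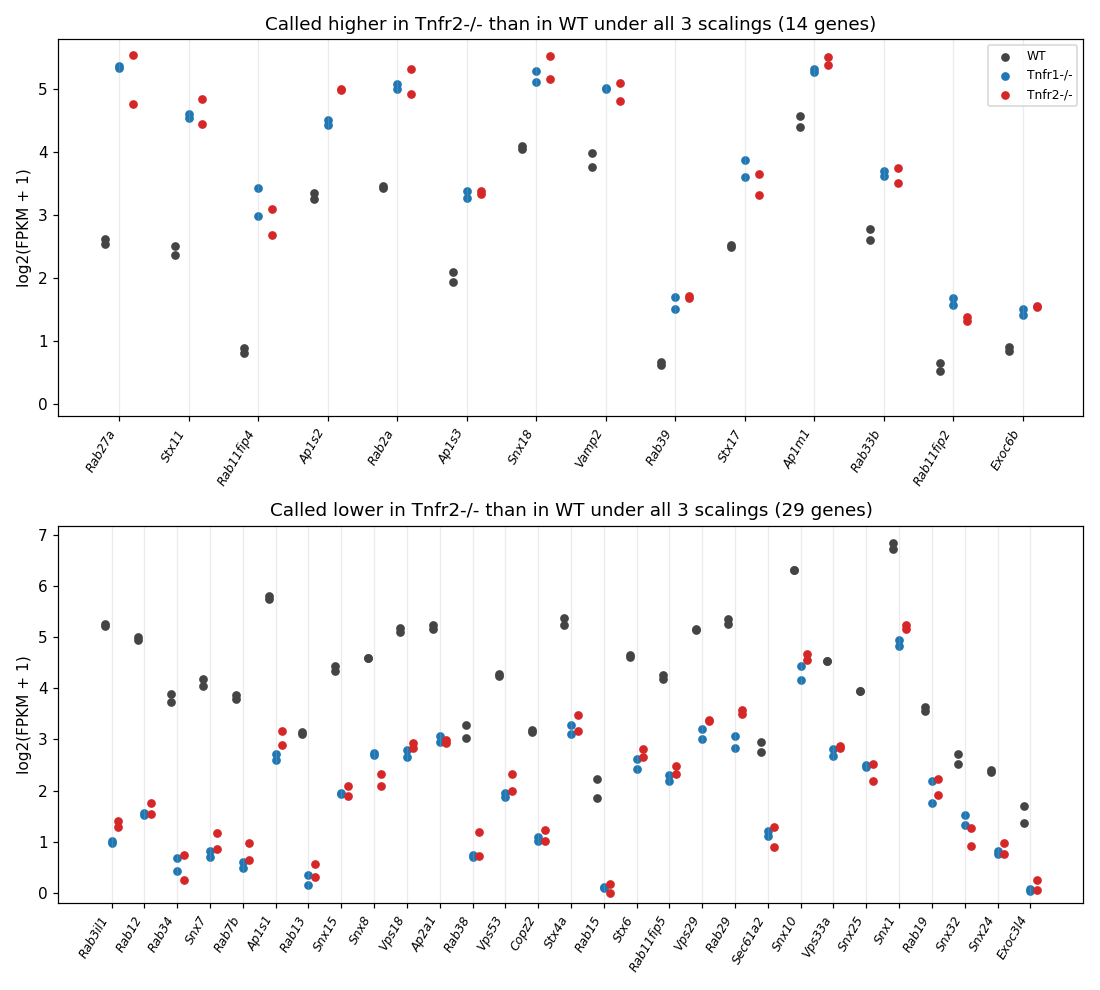
log2(FPKM + 1) (vertical axis) in each of the 6 samples for the 14 genes called higher (upper panel) and the 29 called lower (lower panel) in Tnfr2-/- than in WT under all 3 scalings, ordered by size of change. Grey points are WT, blue Tnfr1-/- and red Tnfr2-/-, and WT stands apart from all 4 knockout samples for each gene, with Rab27a and Rab3il1 at the left.

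Sorting nexins were lower as a family. Of 25, 1 was called higher (14.1% of all genes) and 22 lower (60.7%) in Tnfr1-/-. In Tnfr2-/- 1 was called higher (13.6%) and 19 lower (57.1%). The median log2 change, -1.19 and -1.13, lay 0.36 and 0.39 below that of all genes, and after median-ratio scaling it was -0.43 and -0.36 with 8 and 10 genes called lower. Snx7 fell most, from 17.1 and 15.6 FPKM in WT to 0.63 and 0.77 FPKM in Tnfr1-/- and 0.80 and 1.24 FPKM in Tnfr2-/-, and its log2 change was -3.35 ± 0.13 (adjusted p = 3.27e-05) and -3.11 ± 0.13 (adjusted p = 4.62e-05). Snx15 went from 20.6 and 19.1 FPKM to 2.87 and 2.79 FPKM and to 2.70 and 3.27 FPKM. Snx3, which binds retromer and was the highest of the family, went from 170 and 162 FPKM to 52.8 and 52.0 FPKM and to 64.5 and 62.9 FPKM, a fall called as deposited and not after median-ratio scaling. Snx1, a membrane-bending nexin that works with retromer, kept its call under every scaling, with a log2 change of -1.90 and -1.59. Its partners Snx2, Snx5 and Snx6 had log2 changes of -0.94 to -1.56 as deposited and were called lower, but were not called after median-ratio scaling.

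All 3 listed retromer subunits were called lower in each knockout as deposited. Vps35, the scaffold, was at 79.6 and 82.9 FPKM in WT, 31.2 and 29.7 FPKM in Tnfr1-/- and 35.8 and 32.6 FPKM in Tnfr2-/-. Vps26a went from 58.6 and 60.4 FPKM to 18.5 and 18.1 FPKM and to 23.2 in both Tnfr2-/- samples. Vps29 went from 34.9 and 34.4 FPKM to 8.23 and 7.03 FPKM and to 9.32 and 9.42 FPKM. Of the 3 only Vps29 was still called after median-ratio scaling, with a log2 change of -0.98 and -0.84, and the values of Vps35 (-0.27 and -0.25) and Vps26a (-0.54 and -0.35) did not pass.

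The endosomal and lysosomal tethers HOPS and CORVET behaved unevenly. Of 8 listed subunits 7 were called lower in each knockout as deposited, and 2 after median-ratio scaling, Vps18 and Vps33a. Vps18 was at 35.0 and 33.2 FPKM in WT, 5.95 and 5.29 FPKM in Tnfr1-/- and 6.57 and 6.11 FPKM in Tnfr2-/-, with a log2 change of -2.41 ± 0.09 (adjusted p = 2.68e-05) and -2.26 ± 0.09 (adjusted p = 3.67e-05). Vps33a had a log2 change of -1.80 and -1.68. By contrast, Vps16, which lies in the same core, was at 19.9 and 19.2 FPKM in WT and 12.2 to 15.1 FPKM in the knockouts and was not called. In the GARP and EARP tethers, which receive endosomal vesicles at the Golgi and at recycling endosomes, Vps53 went from 18.0 and 18.3 FPKM in WT to 2.88 and 2.68 FPKM in Tnfr1-/- and 3.001 and 4.02 FPKM in Tnfr2-/-, whereas Vps52 was at 16.4 and 15.98 FPKM in WT and 11.5 to 13.7 FPKM in the others. Vps52 was called lower in neither comparison. Median-ratio scaling called it higher in both, and quantile normalization in neither.

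The ESCRT genes taken by symbol differed by complex as deposited. Among the 4 listed ESCRT-I and ESCRT-II genes only Vps25 was called lower as deposited, and 84.0% of its 50-base windows also occur in another gene. Vps37c was at 7.08 and 6.85 FPKM in WT, 10.1 and 9.81 FPKM in Tnfr1-/- and 10.7 and 9.43 FPKM in Tnfr2-/-, a log2 change of 0.46 and 0.47 that missed the fold threshold. Vps28 and Vps36 were not called either, and after median-ratio scaling all 3 were called higher. Among the 10 ESCRT-III and Vps4 genes, 9 in Tnfr1-/- and 8 in Tnfr2-/- were called lower. Their median log2 change was -1.10 and -0.85. After median-ratio scaling 0 of the 10 were called lower in either knockout, and 1 was called higher in Tnfr1-/-. Of 8 listed ESCRT partners outside the rule, 7 were called lower in Tnfr1-/- (60.7% of all genes) and 6 in Tnfr2-/- (57.1%) as deposited. Chmp4b, the main filament subunit, went from 175 and 173 FPKM in WT to 78.7 and 88.3 FPKM in Tnfr1-/- and 97.5 and 101 FPKM in Tnfr2-/-, and Chmp2a from 73.2 and 78.2 FPKM to 27.2 and 25.7 FPKM and to 29.8 and 27.5 FPKM. Neither was called after median-ratio scaling, where Chmp4b had a log2 change of 0.08 and 0.19.

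The AP-1 adaptor, which sorts cargo between the Golgi and endosomes, had calls in both directions that held under all 3 scalings. It takes 1 of 3 alternative small sigma subunits, encoded by Ap1s1, Ap1s2 and Ap1s3. Ap1s1 was at 55.2 and 52.9 FPKM in WT, 5.60 and 5.05 FPKM in Tnfr1-/- and 6.38 and 8.01 FPKM in Tnfr2-/-. Ap1s2 was at 9.16 and 8.49 FPKM in WT, 20.4 and 21.6 FPKM in Tnfr1-/- and 30.9 and 30.5 FPKM in Tnfr2-/-. Ap1s3 was at 2.83 and 3.27 FPKM in WT, 9.37 and 8.68 FPKM in Tnfr1-/- and 9.03 and 9.42 FPKM in Tnfr2-/-. No knockout sample overlapped with WT in any of the 3, and Ap1s1 was the highest of them in WT and the lowest in the knockouts. The log2 change of Ap1s1 was -3.12 ± 0.12 (adjusted p = 2.97e-05) and -2.75 ± 0.12 (adjusted p = 4.79e-05). That of Ap1s2 was 1.17 ± 0.07 (adjusted p = 0.000111) and 1.69 ± 0.07 (adjusted p = 4.48e-05). Ap1s3 changed by 1.31 ± 0.10 (adjusted p = 0.000194) and 1.34 ± 0.10 (adjusted p = 0.000205), and 16.8% of its 50-base windows also occur in another gene.

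As a share of the summed FPKM of the 3 sigma genes, a measure that no scaling factor between samples alters, Ap1s1 made up 82.2% and 81.8% in WT, 15.8% and 14.3% in Tnfr1-/- and 13.8% and 16.7% in Tnfr2-/-. Ap1s2 made up 13.6% and 13.1% in WT and 57.7% to 66.7% in the knockouts. Ap1s3 made up 4.21% and 5.05% in WT and 19.5% to 26.5% in the knockouts. The sum itself was 67.2 and 64.7 FPKM in WT, 35.4 FPKM in both Tnfr1-/- samples and 46.3 and 48.0 FPKM in Tnfr2-/-. The medium subunit Ap1m1 rose with the latter pair, from 22.7 and 20.01 FPKM in WT to 39.0 and 37.4 FPKM in Tnfr1-/- and 44.3 and 40.7 FPKM in Tnfr2-/-. The large subunits were not called higher as deposited. Ap1b1 was called lower as deposited (23.4 and 25.6 FPKM in WT, 11.8 to 12.7 FPKM in the knockouts), and Ap1g1 was at 21.7 and 21.6 FPKM in WT and 14.8 to 18.1 FPKM in the others and was not called. After median-ratio scaling Ap1g1 was called higher in Tnfr1-/- (log2 change 0.66) and not in Tnfr2-/- (0.55), and with quantile normalization in neither.

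**Figure D3:**
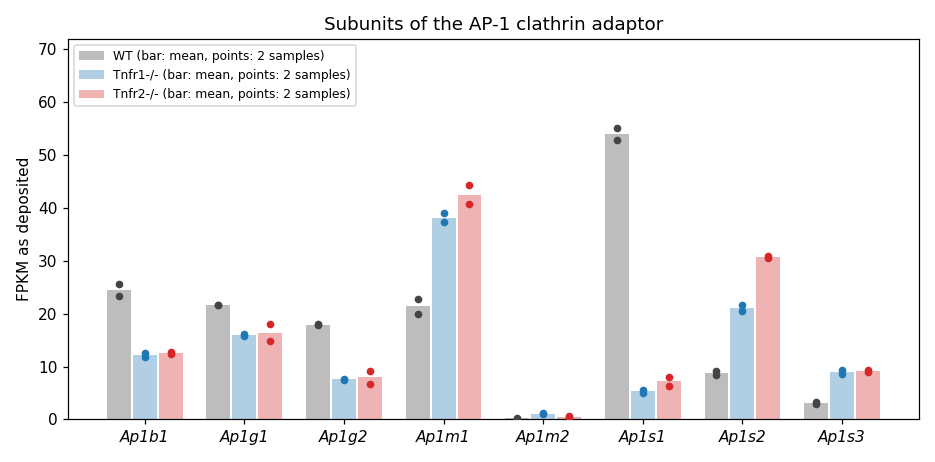
FPKM as deposited (vertical axis) of the 8 listed AP-1 subunit genes, with bars for the mean of each genotype and points for its 2 samples. Ap1s1 falls from 55.2 and 52.9 FPKM in WT to 8.01 FPKM or less in the knockouts, while Ap1s2, Ap1s3 and Ap1m1 stand higher in the knockouts.

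The RNA of these 3 alternative subunits changed in opposite directions, and whether one replaced another in the adaptor of any cell was not tested. The 250 bases before their transcription starts are shown, from RefSeq promoter sequences on GRCm38.p6 and written along the strand of the gene. Capitals mark matches to 5 short motifs searched on both strands. These were the E-box with the letters CACGTG, the PU.1 motif GAGGAAGT, the C/EBP motif TTGCNNAA, the CCAAT box as spelled, and the GC box with the letters GGGCGG. The windows are chr5:137046109-137046358 on the minus strand for Ap1s1, chrX:163908767-163909016 on the plus strand for Ap1s2 and chr1:79671973-79672222 on the minus strand for Ap1s3.
Ap1s1: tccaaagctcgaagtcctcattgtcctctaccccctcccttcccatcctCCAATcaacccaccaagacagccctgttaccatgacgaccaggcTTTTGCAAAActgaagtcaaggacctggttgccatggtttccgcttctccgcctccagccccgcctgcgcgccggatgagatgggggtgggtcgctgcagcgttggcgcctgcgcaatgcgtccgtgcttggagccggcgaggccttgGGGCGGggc
Ap1s2: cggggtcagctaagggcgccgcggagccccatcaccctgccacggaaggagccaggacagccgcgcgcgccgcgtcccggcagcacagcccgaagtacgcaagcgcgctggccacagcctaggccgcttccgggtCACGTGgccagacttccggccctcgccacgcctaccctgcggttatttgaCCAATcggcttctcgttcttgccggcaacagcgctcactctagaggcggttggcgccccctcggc
Ap1s3: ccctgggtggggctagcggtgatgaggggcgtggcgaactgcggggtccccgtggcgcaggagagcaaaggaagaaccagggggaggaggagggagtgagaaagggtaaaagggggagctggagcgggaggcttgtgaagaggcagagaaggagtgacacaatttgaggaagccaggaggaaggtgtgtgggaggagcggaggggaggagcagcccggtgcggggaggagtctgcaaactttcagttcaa
The window of Ap1s1 held 2 overlapping C/EBP matches, whose first bases lie 157 and 155 bases before the start, a CCAAT box and a GC box. That of Ap1s2 held an E-box 115 bases and a CCAAT box 65 bases before the start, and that of Ap1s3 held none of the 5. A C/EBP match occurred in 10.8% of 27025 promoter windows of the same length, an E-box in 6.86%, a CCAAT box in 37.5%, a GC box in 35.4% and a PU.1 match in 2.79%. Promoters were matched for 139 of the 170 genes. Of these 10.8% held a C/EBP match, 11.5% an E-box, 36.0% a CCAAT box, 70.5% a GC box and 1.44% a PU.1 match, and over all listed genes with a promoter the values were 9.28%, 10.2%, 40.3%, 62.2% and 2.94%.

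The AP-2 adaptor, which works in endocytosis at the plasma membrane, had 4 of 5 subunits called lower in Tnfr1-/- and 3 of 5 in Tnfr2-/-. Ap2a1 was at 36.9 and 34.7 FPKM in WT, 7.43 and 6.74 FPKM in Tnfr1-/- and 6.59 and 6.98 FPKM in Tnfr2-/-, whereas the other alpha subunit, Ap2a2, was at 37.4 and 39.8 FPKM in WT, 22.7 and 20.7 FPKM in Tnfr1-/- and 31.0 and 25.0 FPKM in Tnfr2-/-. Only Ap2a1 of the pair kept its call after median-ratio scaling (log2 change -1.12 and -1.30). Ap2s1, the highest AP gene, went from 236 and 226 FPKM in WT to 68.5 and 59.2 FPKM and to 78.9 and 77.2 FPKM, and after median-ratio scaling its fall was called in Tnfr1-/- and not in Tnfr2-/- (log2 change -0.71 and -0.57). Ap2b1 was at 20.2 and 20.9 FPKM in WT and 23.1 to 25.0 FPKM in the knockouts and was not called as deposited, but median-ratio scaling (log2 change 1.27 and 1.20) and quantile normalization called it higher in both. The AP-3 adaptor of lysosomal sorting had 2 of 5 subunits called lower in each knockout as deposited. After median-ratio scaling 0 were called lower, and 1 in Tnfr1-/- (Ap3b1) and 2 in Tnfr2-/- (Ap3b1 and Ap3m1) were called higher.

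Syntaxins and VAMPs, the fusion proteins, held calls in both directions. Of 9 Stx genes 2 were called higher and 6 lower in each comparison, and the risers were Stx11 and Stx17, described above. The shares of all genes were 14.1% higher and 60.7% lower in Tnfr1-/-, and 13.6% and 57.1% in Tnfr2-/-. Stx4a, a plasma membrane syntaxin, was at 40.6 and 36.5 FPKM in WT, 8.74 and 7.56 FPKM in Tnfr1-/- and 8.001 and 10.1 FPKM in Tnfr2-/-. Stx6, of the trans-Golgi, was at 23.4 and 24.2 FPKM in WT, 4.34 and 5.09 FPKM in Tnfr1-/- and 5.28 and 5.99 FPKM in Tnfr2-/-. Both fell under all 3 scalings, with log2 changes of -2.12 to -1.90 as deposited. In WT the highest syntaxin was Stx12, at 49.5 and 47.1 FPKM, and in the knockouts the highest by mean was Stx5a, at 22.1 to 27.9 FPKM, whose samples overlapped with those of Stx11 at 20.7 to 27.5 FPKM. Vamp8, a SNARE of late endosomes and granules, was the highest VAMP, at 202 and 201 FPKM in WT, 71.2 and 77.5 FPKM in Tnfr1-/- and 90.5 and 92.9 FPKM in Tnfr2-/-. Its fall and those of Vamp3 and Vamp5 depended on the scale, and Vamp3, called lower in Tnfr1-/- only, had a log2 change of -0.77 and -0.46 as deposited but 0.35 and 0.52 after median-ratio scaling.

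Genes that share a symbol stem with one called in the opposite direction were found in 4 groups. Beside the AP-1 sigma genes and Vamp2, these were the Rab11 effectors and the exocyst. Of the Rab11 effectors Rab11fip2 (0.56 and 0.44 FPKM in WT, 1.98 and 2.21 FPKM in Tnfr1-/-, 1.59 and 1.498 FPKM in Tnfr2-/-) and Rab11fip4 rose. Rab11fip5 went from 17.1 and 18.0 FPKM in WT to 3.54 and 3.94 FPKM in Tnfr1-/- and 4.62 and 3.99 FPKM in Tnfr2-/-, a log2 change of -1.97 ± 0.10 (adjusted p = 7.04e-05) and -1.81 ± 0.10 (adjusted p = 0.000101). Rab11fip3 fell as deposited (log2 change -0.71 and -0.90) but not after median-ratio scaling (-0.19 and -0.45). Among the exocyst subunits, which tether vesicles to the plasma membrane, Exoc4 and Exoc7 were called lower beside the rise of Exoc6b, and neither was called after median-ratio scaling.

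Most genes of the early secretory pathway were lower as deposited, where 60.7% of all genes were called lower in Tnfr1-/- and 57.1% in Tnfr2-/-. Of 5 COPII genes 3 in Tnfr1-/- and 2 in Tnfr2-/- were called lower, of 7 COPI genes 6 and 5, of 9 TRAPP genes 7 and 6, and of 5 translocon and signal peptidase genes 5 and 3. Their median log2 changes were, in this order, -0.93, -1.025, -0.89 and -1.21 in Tnfr1-/- and -0.53, -0.72, -0.78 and -1.001 in Tnfr2-/-. The translocon and signal peptidase genes lay farthest below the median of all genes, by a log2 difference of -0.38 and -0.27. After median-ratio scaling the counts called lower were, in the same order, 1, 1, 0 and 2 in Tnfr1-/- and 0, 1, 0 and 1 in Tnfr2-/-. Those called higher were 2, 0, 1 and 0 in Tnfr1-/- and 1, 1, 1 and 0 in Tnfr2-/-. Sec61a1, the channel through which new proteins enter the endoplasmic reticulum, was at 80.1 and 85.7 FPKM in WT, 44.9 and 38.3 FPKM in Tnfr1-/- and 53.2 and 68.7 FPKM in Tnfr2-/-, and its log2 change turned from -0.98 and -0.45 as deposited to 0.14 and 0.53 after median-ratio scaling. Its paralogue Sec61a2 was at 6.69 and 5.74 FPKM in WT, 1.33 and 1.17 FPKM in Tnfr1-/- and 0.87 and 1.45 FPKM in Tnfr2-/- and was called lower under all 3 scalings, with 35.8% of its 50-base windows shared with another gene. Copz2, the less abundant COPI zeta subunit, was at 7.82 and 8.07 FPKM in WT, 1.12 and 1.01 FPKM in Tnfr1-/- and 1.01 and 1.35 FPKM in Tnfr2-/-, while Copz1 was at 82.1 and 80.3 FPKM, 41.0 and 36.7 FPKM, and 48.7 and 52.1 FPKM. Only the first was called after median-ratio scaling, at a log2 change of -1.26 and -1.27.

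The TRAPP and Arf genes gave no call that held under all 3 scalings. Trappc1 was at 53.5 and 49.0 FPKM in WT, 35.8 and 35.0 FPKM in Tnfr1-/- and 44.4 and 47.2 FPKM in Tnfr2-/-. Median-ratio scaling called it higher in both (0.59 and 0.81), and quantile normalization in Tnfr2-/- only. Trappc3 had a log2 change of -1.67 and -1.45 as deposited and -0.56 and -0.48 after median-ratio scaling, just short of the threshold of 0.585. Arf1 was at 227 and 234 FPKM in WT, 129 and 120 FPKM in Tnfr1-/- and 143 and 147 FPKM in Tnfr2-/-, a log2 change of -0.88 and -0.66 that became 0.25 and 0.33 on the median-ratio scale.

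Between the knockouts none of the 170 genes was called, where 1.45% of all genes were. Their median log2 change in Tnfr2-/- against Tnfr1-/- was 0.14, against 0.06 for all genes, and 0.01 against -0.01 after median-ratio scaling. At an unadjusted limma p under 0.05, 44 were higher in Tnfr2-/- (15.9% of all genes) and 4 lower (8.01% of all genes). After median-ratio scaling these were 18 (9.73% of all genes) and 7 (12.8% of all genes). The count of higher genes thus came down to about the share of all genes, and the count of lower genes was below that share on both scales. The 2 samples of each knockout did not overlap in 91 genes higher in Tnfr2-/-, where 34.9% of all genes were so, and in 8 genes lower, where 16.1% were. The replicate SD of the 170 genes on the log2 scale was 0.07 in WT, 0.11 in Tnfr1-/- and 0.17 in Tnfr2-/-, and that of all genes was 0.08, 0.14 and 0.21.

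Ap1s2 was the gene with the lowest adjusted p between the knockouts. Its log2 change of 0.53 ± 0.07 (adjusted p = 0.0407) fell short of the fold threshold, and after median-ratio scaling it was 0.39 (adjusted p = 0.0977). Stx3, a syntaxin of granule exocytosis, was at 2.09 and 2.61 FPKM in Tnfr1-/- and 4.15 and 4.60 FPKM in Tnfr2-/-, with a log2 change of 0.69 ± 0.12 (adjusted p = 0.0582). Rab29, a GTPase of the Golgi and lysosomes, was at 7.34 and 6.15 FPKM in Tnfr1-/- and 10.3 and 11.0 FPKM in Tnfr2-/-, a log2 change of 0.59 ± 0.10 (adjusted p = 0.0582). In the other direction Snx8 was at 5.63 and 5.45 FPKM in Tnfr1-/- and 3.24 and 4.02 FPKM in Tnfr2-/-, a log2 change of -0.50 ± 0.11 (adjusted p = 0.0772). Under other scalings a single gene was called, Snx8 as lower with median-ratio scaling (1.45% of all genes) and Stx3 as higher with quantile normalization (1.48% of all genes). For Ap1m2 and Vps13a, called higher than WT in Tnfr1-/- only as deposited, the difference between the knockouts was -0.43 ± 0.07 (adjusted p = 0.0526) and -0.38 (adjusted p = 0.147).

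The Tnfr2-/- samples lay apart from each other in some Sec genes, which were picked for that gap after their values were seen. Sec13, a COPII coat subunit, was at 19.5 and 15.7 FPKM in Tnfr1-/- and at 23.3 and 31.7 FPKM in Tnfr2-/-. Sec31a, its coat partner, was at 11.0 and 10.4 FPKM in Tnfr1-/- and at 11.3 and 16.7 FPKM in Tnfr2-/-. Sec23b was at 12.1 and 11.5 FPKM and at 13.4 and 18.9 FPKM, and Sec61g, a small translocon subunit, at 14.9 and 9.97 FPKM and at 14.5 and 26.3 FPKM. In each of them Tnfr2-/- replicate 2 was the higher sample, and replicate 1 lay close to Tnfr1-/- in Sec31a and Sec61g. Others showed no such gap, such as Sec24b, of the COPII coat (15.6 and 16.1 FPKM in Tnfr2-/-), and Copb1, of the COPI coat (34.9 and 36.6 FPKM). With both samples the log2 change of Tnfr2-/- against Tnfr1-/- was 0.61 for Sec13, 0.41 for Sec23b and 0.33 for Sec31a. Without Tnfr2-/- replicate 1 it was 0.82, 0.64 and 0.59, values that rest on a single Tnfr2-/- sample.

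**Figure D4:**
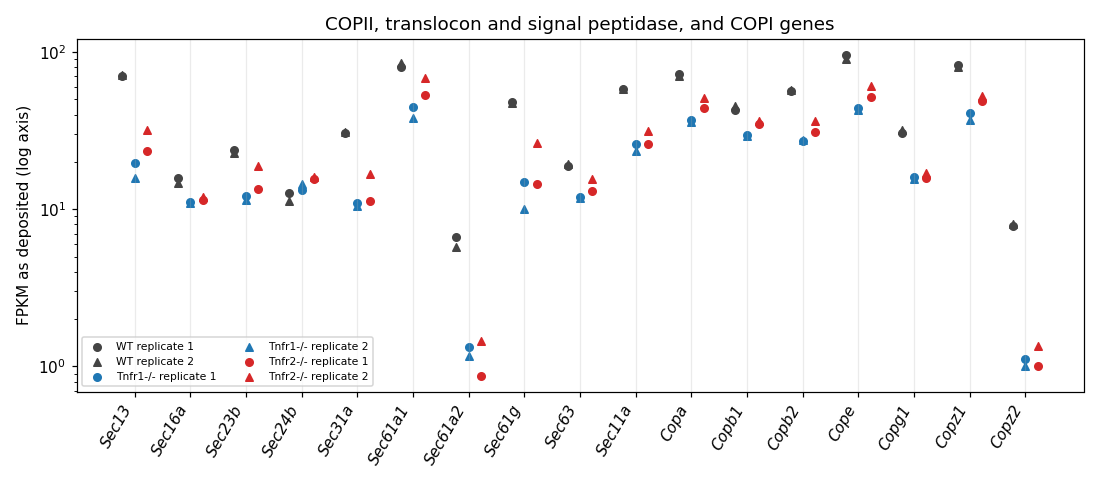
FPKM as deposited on a log axis (vertical) in each sample for COPII, translocon, signal peptidase and COPI genes, with circles for replicate 1 and triangles for replicate 2. Sec61a2 and Copz2 lie lowest in all samples, and the Tnfr2-/- triangle lies above the circle in Sec13 (31.7 and 23.3 FPKM), Sec23b, Sec31a and Sec61g.

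The genes shared a relation with transcript length that the table shows as a whole. Over the 170 genes the Spearman correlation of log2 change with transcript length was 0.37 in Tnfr1-/- and 0.34 in Tnfr2-/-, and over all genes with a length it was 0.31 and 0.29. These are correlations across genes of the same libraries. The median transcript of the 14 genes called higher in Tnfr2-/- was 3346 bases long, and that of the 108 called lower was 2562 bases. Windows of 50 bases shared with another gene made up over 5% of the transcript in 37 of the 170 genes, most in Rab43 (90.4%) and Vps25 (84.0%), so that reads may be split there.

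Other genes of the pathway have symbols that the rule does not take. Of 180 such genes (SNARE partners, Rab and Arf regulators, clathrin, ESCRT partners and cargo receptors) 130 were listed, of which 14 were called higher and 88 lower in Tnfr1-/-, and 16 higher and 80 lower in Tnfr2-/-. The shares of all genes were 14.1% and 60.7%, and 13.6% and 57.1%. After median-ratio scaling it was 30 higher and 28 lower in both, where 23.3% and 22.1% of all genes were in Tnfr1-/- and 21.8% and 21.0% in Tnfr2-/-. Gdi2, which recycles Rab GTPases and had the highest mean, was at 220 and 227 FPKM in WT, 102 FPKM in both Tnfr1-/- samples and 123.2 and 128 FPKM in Tnfr2-/-. Clta, a clathrin light chain, went from 192 and 199 FPKM to 37.2 and 37.9 FPKM and to 46.5 and 49.4 FPKM and was also below the typical gene after median-ratio scaling (log2 change -1.22 and -1.02). Rilpl2, a relative of the Rab7 effector RILP, was at 172 and 169 FPKM in WT, 17.2 and 12.1 FPKM in Tnfr1-/- and 14.2 and 42.2 FPKM in Tnfr2-/-, where the 2 samples lay far apart. Between the knockouts 1 of the 130 was called, Arl11, an Arf-like GTPase, with a log2 change of 0.60 ± 0.08 (adjusted p = 0.0419).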

How the data were processed

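Single-end reads of 50 bases were sequenced from 2 samples of each of 3 genotypes. FastQC, edgeR and the build mm10 are named in the submitters' processing notes; the aligner and the tool behind the FPKM values are not given in the sources used here. The authors deposited FPKM per gene and sample, used here as they stand, and a p-value per gene from a one-way ANOVA over the genotypes, which was not used as a result. The ANOVA, recomputed, gave p under 0.05 for 8191 of 8191 genes.

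With FPKM, no count test was run. limma 3.58.1 (R 4.3.3; trended eBayes on a genotype model) was fitted to log2(FPKM + 1) of all genes and all 6 samples, two-sided, with Benjamini-Hochberg adjustment over all 8191 genes; every SE and adjusted p comes from this fit. Fold changes on this scale understate the change of low genes. The script was tested on simulated data. Alternatives were a pseudocount of 0.1, a mean of at least 1 FPKM (6729 genes), only the 2 groups compared, the replicate number as a block, no trend, median-ratio scaling, quantile normalization, no fold threshold, and each sample left out. With 2 samples per genotype, said to come from separate experiments, the spread between them is the only error measured.

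The genes and lists were chosen with earlier results of these data known. Named were, per knockout, the 8 largest called rises and falls without overlap, the highest and most changed gene of each family, complex subunits, and groups of one symbol stem called in both directions (numbers of Rab, Arf, Vps, Snx, Stx and Sec genes count as part of the stem). The GARP and EARP group and the genes Rab8a, Rab29, Rab33b, Rab39, Rab40b, Rab43, Snx1, Snx2, Snx5, Snx6, Snx8, Stx3, Stx5a, Stx6 and Vps13a were picked once their values were known. Positions, transcript lengths and shared windows are from GENCODE M21 (GRCm38), in which 170 of 170 symbols matched; promoter windows are from RefSeq. Python 3.11.15, NumPy 2.4.6, pandas 2.3.3, matplotlib 3.10.9 and bedtools 2.31.1 were used.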

Additional observations from a re-analysis of the deposited data

Results flagged for a closer look

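The effect of genotype against WT on Ap1s2, a sigma subunit of the AP-1 adaptor, differed between the knockouts in the test of the difference itself. The log2 change of Tnfr2-/- against Tnfr1-/- was 0.53 (limma, adjusted p = 0.0407), Ap1s2 was at 20.4 and 21.6 FPKM in Tnfr1-/- and 30.9 and 30.5 FPKM in Tnfr2-/-, and it was higher in 2 of 2 Tnfr2-/- samples than in either Tnfr1-/- sample. On the median-ratio scale the log2 change was 0.39. There the adjusted p was 0.0977, which misses the threshold, and over the alternatives with all samples it reached 0.16 and with a sample left out 0.157. The difference is short of the fold threshold of 1.5 as deposited.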

How the results depend on the processing

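The scale set the counts. In Tnfr1-/- against WT the genes called higher and lower, 16 and 124 as deposited, were 34 and 35 with median-ratio scaling and 26 and 36 with quantile normalization. In Tnfr2-/- against WT, 14 and 108 became 31 and 31, and 26 and 33. The median log2 change of the 170 genes went from -0.97 to 0.036 (median-ratio) and -0.097 (quantile) in Tnfr1-/-, and from -0.86 to 0.026 and -0.082 in Tnfr2-/-. Between the knockouts it went from 0.14 to 0.014 and 0.031, with 1 gene called lower (Snx8) under median-ratio scaling and 1 higher (Stx3) under quantile normalization. A pseudocount of 0.1 moved the medians against WT to -1.07 and -0.94. Without a fold threshold 22 genes were higher in Tnfr2-/- than in WT and 1 (Ap1s2) than in Tnfr1-/-. With a mean of at least 1 FPKM, 2 (Rab29 and Stx3) were higher in Tnfr2-/- than in Tnfr1-/-. The shares of all genes without a fold threshold and at this minimum mean are not given here, so these counts cannot be set beside them. The cause of these shifts was not tested.

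Leaving out 1 sample at a time gave 15 to 16 higher, 123 to 124 lower and a median of -0.997 to -0.96 in Tnfr1-/- against WT, 14 to 15 higher, 106 to 113 lower and a median of -0.86 to -0.81 in Tnfr2-/- against WT, and 0 to 7 higher, 0 lower and a median of 0.12 to 0.16 between the knockouts. The 7 came without Tnfr2-/- replicate 1.

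Of 1166 repeats over 90 results of 45 named genes, 1087 kept direction and side of the threshold, 46 no longer passed, 5 newly passed and 28 turned direction. All 28 came with median-ratio scaling or quantile normalization, which shift most genes upward in the knockouts, and 0 with any other alternative. Turned with median-ratio scaling (Tnfr1-/-, then Tnfr2-/- where both did) were Arf1 (0.25 and 0.33), Arf3 (0.19 and 0.059), Chmp4b (0.082 and 0.19), Cope (0.050 and 0.26), Sec61a1 (0.14 and 0.53), Trappc1 (0.59 and 0.81) and Vamp3 (0.35 and 0.52), and in Tnfr1-/- Exoc7 (0.030) and Vamp5 (0.085). With quantile normalization they were Arf1 (0.37 and 0.36), Chmp4b (0.083 and 0.16), Sec61a1 (0.065 and 0.43), Trappc1 (0.48 and 0.69) and Vamp3 (0.27 and 0.42), Arf3 in Tnfr1-/- (0.12) and Cope in Tnfr2-/- (0.16).

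With the replicate number as a block the counts were 16 and 124, 14 and 108, and 0 between the knockouts, as without it. The deviations of same-numbered samples correlated at 0.02 to 0.05. Such values show no strong shift shared by same-numbered samples, but cannot tell whether these samples were prepared together. The depth behind the values is unknown.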
